A study of Mus musculus with 9 samples.

Results

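The Hox features of the mouse uterus were taken by name: every feature whose symbol starts with Hoxa, Hoxb, Hoxc or Hoxd and a digit, names that end in os or as included. This gave 43 of the 55228 features counted in each library, of which 39 were Hox genes and 4 were antisense-named transcripts (Hoxa11os, Hoxb3os, Hoxb5os and Hoxd3os1). Cluster A held 12 of them, cluster B 12, cluster C 9 and cluster D 10. RNA was sequenced, after removal of ribosomal RNA, from uterus of WT female C57BL mice aged 8 weeks, with 3 mice in each of 3 groups, all collected on day 7. The sham group had a sham operation. The injury group had curettage by needle (27 gauge, 10 withdrawals) and then 50 μL of PBS. The CRC group had the same curettage and at once received 1000000 WT CRCs in 50 μL. CRCs are mouse endometrial epithelial cells kept in culture by conditional reprogramming beside irradiated mouse 3T3 cells. Injury against sham asks what curettage and PBS together did to the counts, and CRC against injury asks what the cells added. Between CRC and sham, curettage and cells cannot be told apart, and RNA of the donor cells cannot be told apart from RNA of the host, since both were WT mouse.

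Hox genes encode homeodomain transcription factors. They lie side by side in clusters, in the order in which they act along the body axis, and many of these loci also make RNA from the strand opposite to the genes. In the female tract the posterior genes pattern the segments of the Müllerian duct, and Hoxa10 and Hoxa11 act in the stroma of the adult uterus, where implantation and decidualization need them.

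Features held 325384, 317754 and 327883 counts in the sham libraries, 290684, 280886 and 282937 in the injury libraries, and 288619, 289964 and 290833 in the CRC libraries. Features thus took between 0.776% and 0.898% of the records. Most other records fell in no feature, from 30853063 in injury replicate 3 to 35560004 in sham replicate 1. Levels are given as counts or as CPM (counts per 1000000 counts on features) on library sizes scaled by TMM. A count of 0 allows up to 3 counts, which is 9.14 to 11.1 CPM depending on the library, and this limit covers counting error only. The sham libraries stood apart from each other. By Euclidean distance on log2 CPM, sham replicate 1 lay at a mean of 51.5 from the other sham libraries and 41.3 from the injury libraries. Sham replicates 2 and 3 held 28622 and 24851 records that fell in more than 1 feature, against 2571 in sham replicate 1 and 1751 to 6470 in the injury and CRC libraries. Calls that changed without a sham library are given below with their value without it. Whether the counting used strand, and which strand, is not given in the sources used here, so reads of a Hox gene and of an antisense partner over the same bases cannot be told apart. The same limit holds for every gene named below, markers and genes with 0 counts included. A count says how many reads were put under a name, and the strand they came from is not stated and was not tested. How reads were split at a locus of known strand use, that of Xist and Tsix, is given below.

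Hox features together held 11333 counts over the 9 libraries, 0.421% of all counts on features. The antisense-named transcripts held 10068 of these (88.8%), and the 39 genes held 1265 (11.2%). Of the genes, 14 had 0 counts in every library, 6 had 1 to 9 in all, 15 had 10 to 99 and 4 had 100 or more. Summed over the genes, the level was 459 ± 103 CPM in sham, 389.7 ± 86.4 in injury and 544 ± 54.7 in CRC (SD, n = 3). The libraries of the 3 groups overlapped, with 341 to 522 CPM in sham, 329.8 to 489 in injury and 486 to 594 in CRC. The antisense-named transcripts summed to 3759 ± 423 CPM in sham, 3183 ± 265 in injury and 4200.3 ± 275 in CRC, and every CRC library lay above every injury library. In bulk tissue, fewer cells of a type and less RNA per cell cannot be told apart.

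By cluster, the genes of HoxB held the most counts, 682 over the 9 libraries, followed by 288 in HoxD, 251 in HoxA and 44 in HoxC. The order rests on the strand: features opposite the genes held 6450 counts under antisense-named Hox transcripts and 1748 under other names in HoxA, 2398 and 12 in HoxB, 1220 and 158 in HoxD, and 0 in HoxC. In HoxC only 1 feature lies on that strand. The HoxB genes had 272, 178 and 229 CPM in the sham mice, 208, 249.7 and 165 after injury, and 353, 286 and 302 with CRCs. Every CRC library lay above every sham and injury library. The HoxD genes had 159, 44.4 and 129 CPM in the sham mice, 62.5, 130.1 and 116 after injury, and 107, 104 and 104 with CRCs. Within sham, replicate 2 was the low one, and the groups overlapped.

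Along the clusters, the genes of paralog groups 1 to 4 held 402 counts, those of groups 5 to 8 held 393 and those of groups 9 to 13 held 470. This split rests on the strand as well, so counts on the other strand are given beside it. In HoxA the posterior genes of groups 9 to 13 held 212 of the 251 counts, and Hoxa11 alone held 147. On the other strand Hoxa11os, opposite Hoxa11, held 6450. The features 5730596B20Rik and Hoxaas2, opposite Hoxa3, held 881 and 523. In HoxB the anterior and middle genes held nearly all counts, 362 in groups 1 to 4 and 317 in groups 5 to 8, against 3 in groups 9 to 13. There the other strand held 2397 under Hoxb3os, opposite Hoxb2 and Hoxb3, and 1 under Hoxb5os, opposite Hoxb5. In HoxD the genes of groups 9 to 13 held 223 of 288, while on the other strand Hoxd3os1, opposite the anterior genes Hoxd3 and Hoxd4, held 1220. Of the 9 HoxC genes, 6 had 0 counts in every library, and Hoxc11 held 29 of the 44 counts of that cluster.

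**Figure D1:**
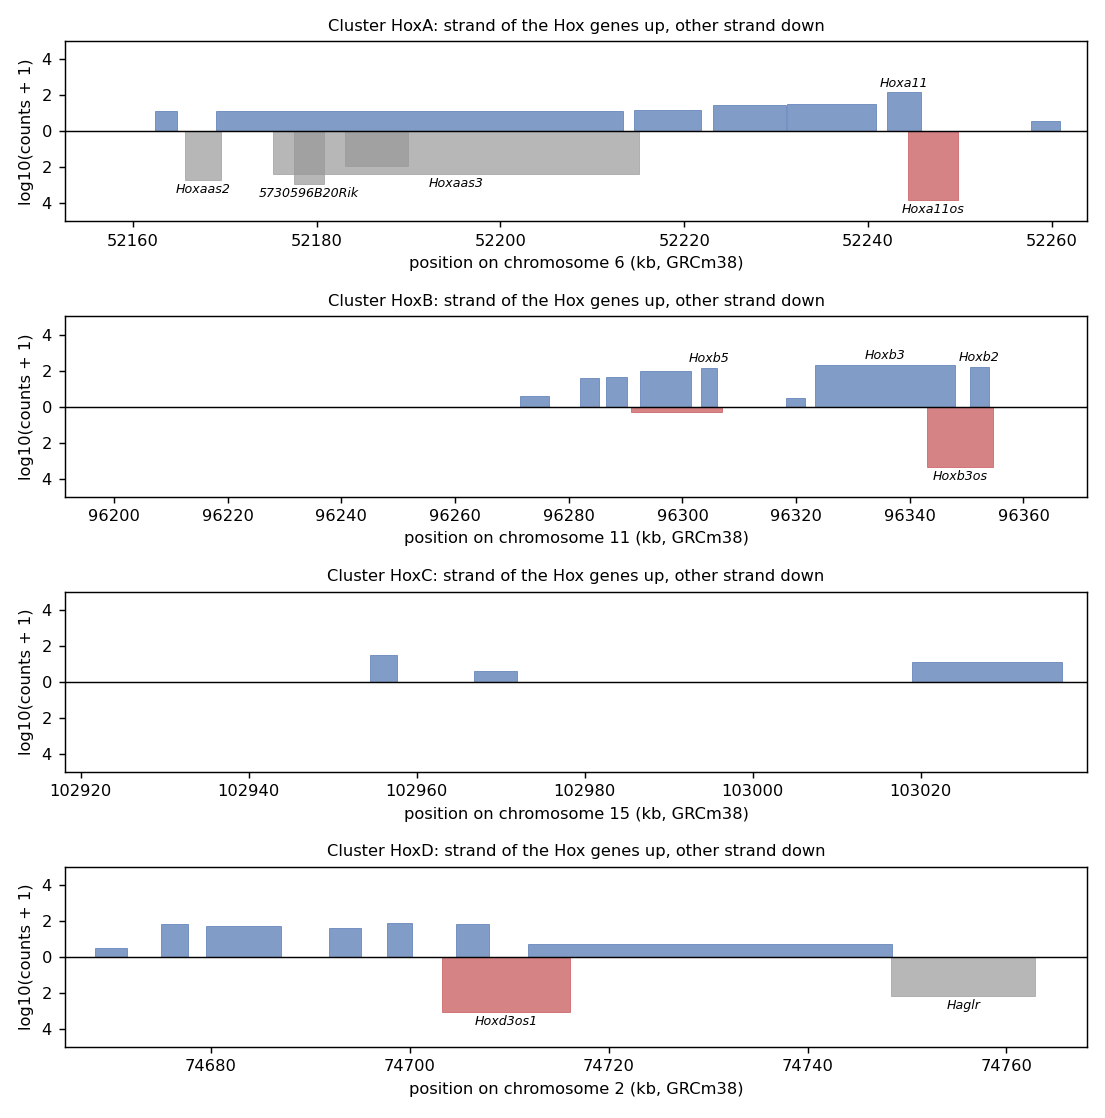
Counts over the 9 libraries, as log10(counts + 1), along the 4 Hox clusters on GRCm38, with Hox genes (blue) drawn up, and the antisense-named Hox transcripts (red) and other features (grey) drawn down where they lie on the other strand. Names are given from 100 counts up. Hoxa11os held 6450 counts and Hoxa11 held 147.

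Hoxa11os (ENSMUSG00000086427.8) lies on the plus strand of chromosome 6 from 52244393 to 52249799, and Hoxa11 (ENSMUSG00000038210.10) on the minus strand from 52242106 to 52245810. The exons of both share 800 bases, of which 709 are coding sequence of Hoxa11. Hoxa11os had 663, 913 and 691 counts in the sham mice, 525, 528 and 596 after injury, and 905, 732 and 897 with CRCs. It was the 39th feature of 55228 by total counts. All 3 injury libraries lay below all other libraries, and sham and CRC overlapped. Hoxa11 had 11, 5 and 36 counts in the sham mice, 13, 19 and 9 after injury, and 26, 7 and 21 with CRCs. Its highest and lowest library were both sham, and all groups overlapped. Per kilobase of exon, Hoxa11os stood at 868 ± 207 CPM in sham and Hoxa11 at 26.7 ± 25.9 (SD, n = 3).

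Hoxb3os (ENSMUSG00000084844.3) lies on the minus strand of chromosome 11 from 96343072 to 96354691. It shares 2250 exon bases with Hoxb3 and 953 with Hoxb2, which lie on the plus strand, and these make up 76.2% of its exons. Hoxb3os had 312, 142 and 202 counts in the sham mice, 270, 234 and 276 after injury, and 313, 314 and 334 with CRCs. Sham replicate 1 was as high as the CRC libraries, and the other sham libraries lay below all others. Per kilobase, its level was 179 ± 58.2 CPM in sham, against 14.8 ± 6.46 for Hoxb3 and 15.6 ± 4.67 for Hoxb2 (SD, n = 3).

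Hoxd3os1 (ENSMUSG00000052371.5) lies on the minus strand of chromosome 2 from 74703248 to 74716130. It shares 347 exon bases with Hoxd3 and with Hoxd4, none of them coding. Hoxd3os1 had 119, 92 and 81 counts in the sham mice, 66, 112 and 121 after injury, and 198, 219 and 212 with CRCs. All CRC libraries lay above all others, and sham and injury overlapped. Hoxd3 had 1, 0 and 0 counts in the sham mice, 0 in each injury library, and 0, 1 and 2 with CRCs. Hoxd4 had 0 in every library. Hoxb5os had 1 count in all, in injury replicate 2, while Hoxb5, which shares 100 exon bases with it, had 26, 8 and 18 in the sham mice, 11, 13 and 4 after injury, and 15, 16 and 27 with CRCs.

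As a share of the counts on it and on the Hox genes opposite, Hoxa11os took 97.8%, Hoxd3os1 99.7% and Hoxb3os 86.9% over the 9 libraries (exact Clopper-Pearson 95% intervals of the pooled counts 97.4% to 98.1%, 99.2% to 99.9% and 85.6% to 88.2%). These intervals cover counting error only, and single libraries lay outside them. Between libraries the shares ran from 95% to 99.5% for Hoxa11os, 99.1% to 100% for Hoxd3os1 and 83.9% to 90.0% for Hoxb3os. Hoxb5os took 0.719% of the counts on it and Hoxb5 (0.0182% to 3.94%), so the antisense-named transcript did not hold most counts at every locus. Hoxb5os has only 696 exon bases, of which 100 lie opposite Hoxb5, 3.59% of the exon bases of that gene. With so little overlap, its share says little about the strand of the reads. At a locus of known strand use, Xist, which female cells transcribe from the inactive X, had 5, 11 and 9 counts in the sham mice, 3, 6 and 4 after injury, and 20, 8 and 11 with CRCs. Its antisense partner Tsix had 5196, 6118 and 5377 counts in the sham mice, 4425, 4562 and 4364 after injury, and 4877, 5057 and 4584 with CRCs, 99.8% of both. Were the counting done on the opposite strand, counts under an antisense-named feature would be reads from the strand of the Hox gene, and the larger share at these loci would be that of the gene strand. What part the strand used in counting has in the Hox shares was not tested, so the names here say only under which feature reads were counted.

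Over the spans of the clusters, features on the strand opposite to the Hox genes held 90.4% of all 13257 counts, those outside the name rule included. The share was 97.0% in HoxA, 77.8% in HoxB and 82.7% in HoxD. In HoxC all 44 counts lay on the strand of the genes. HoxC has no antisense-named Hox transcript and only 1 other feature on the opposite strand. HoxA, HoxB and HoxD have 16, 3 and 3 such other features beside their antisense-named transcripts. Reads from that strand of HoxC thus had almost no feature to be counted under, and its share cannot be set against the others. Of the 43 Hox features, 14 have an exon opposite an exon of another feature, and these held 94.8% of the Hox counts. Over all features matched to the annotation, 8896 of 53569 (16.6%) have such an exon, and they held 79.8% of the counts.

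Of the 43 Hox features, 9 had enough counts for a test across all features: the genes Hoxa11, Hoxb2, Hoxb3, Hoxb5, Hoxb6 and Hoxd9, and Hoxa11os, Hoxb3os and Hoxd3os1. A feature was called at a Benjamini-Hochberg adjusted p under 0.05 by edgeR's quasi-likelihood test over all 3722 features tested. The median log2 fold change over all tested features was −0.01 for injury against sham, 0.03 for CRC against sham and 0.01 for CRC against injury, and over the 9 Hox features −0.33, 0.27 and 0.42. With library sizes of all records in place of TMM the medians over all features were 0.09, 0.32 and 0.21.

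Compared to sham, no Hox feature was called in the injury group. This was 0 of 9 tested with edgeR, where 0.430% of all features were called, and 0 with DESeq2, and 1 had an unadjusted p under 0.05. That one was Hoxa11os, at 1923 ± 147 CPM in injury and 2667 ± 638 in sham (SD, n = 3), a log2 fold change of −0.47 (SE 0.15, adjusted p = 0.174). It was also the 1 Hox feature whose libraries did not overlap between these groups, as did not those of 15.7% of all features. Without sham replicate 1 Hoxa11os was called (log2 fold change −0.60, adjusted p = 0.00957), as were 154 features in all in place of 16. Over 17 alternatives its adjusted p ran from 0.00957 to 0.723, and it was called in 1. Fold changes of the 9 features were below 0 for 6 and above 0 for 3.

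Compared to sham, Hoxd3os1 was higher in the CRC group, at 641 ± 35.3 CPM against 339 ± 48.2 (SD, n = 3), a log2 fold change of 0.92 (SE 0.21, adjusted p = 0.00149). It was the 1 of 9 tested Hox features called (11.1%), where 20.0% of all tested features were called and 8.03% were called higher in CRC. Its libraries did not overlap, as did not those of 35.5% of all features. The call held in all 17 alternatives, with log2 fold changes from 0.79 to 1.21 and adjusted p-values from 0.000107 to 0.0186. Hoxb3os was not called, at 979 ± 34.9 CPM against 753 ± 245 (log2 fold change 0.37, SE 0.18, adjusted p = 0.15). Without sham replicate 1, the sham library with a high level, it was called (0.63, adjusted p = 0.00638), as it was with library sizes of all records (0.66, adjusted p = 0.013), and over 17 alternatives its adjusted p ran from 0.00638 to 0.607. Hoxa11os stood at 2581 ± 287 CPM against 2667 ± 638, a log2 fold change of −0.05 (SE 0.15, adjusted p = 0.869), and its sign turned in 5 of 17 alternatives, to 0.13 without sham replicate 2 (adjusted p = 0.576) and at most to 0.26 with library sizes of all records (adjusted p = 0.212, range 0.212 to 1).

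Compared to injury, Hoxd3os1 was again higher in the CRC group, which is the same group of libraries, at 641 ± 35.3 CPM against 349 ± 105 (SD, n = 3), a log2 fold change of 0.88 (SE 0.20, adjusted p = 0.00335). This was 1 of 9 tested Hox features called, where 12.9% of all features were called and 5.10% were called higher in CRC. Without injury replicate 1, the lowest of all libraries for Hoxd3os1, it was not called (0.63, adjusted p = 0.0619). It was called in the other 16 of 17 alternatives, with adjusted p-values from 0.000116 up. Hoxa11os stood at 2581 ± 287 CPM against 1923 ± 147, a log2 fold change of 0.42 (SE 0.15, adjusted p = 0.0628). It was called in 5 of 17 alternatives, among them the fits without sham replicate 1 (adjusted p = 0.0285) and without sham replicate 2 (adjusted p = 0.0218), over a range of 0.00506 to 0.347. Of the 9 features 3 did not overlap between these groups (Hoxd3os1, Hoxa11os and Hoxb2), where 33.5% of all features did not. Between injury and sham Hoxd3os1 had a log2 fold change of 0.04 (SE 0.21, adjusted p = 0.97), and −0.06 without sham replicate 3 (adjusted p = 0.954, range 0.686 to 0.989).

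**Figure D2:**
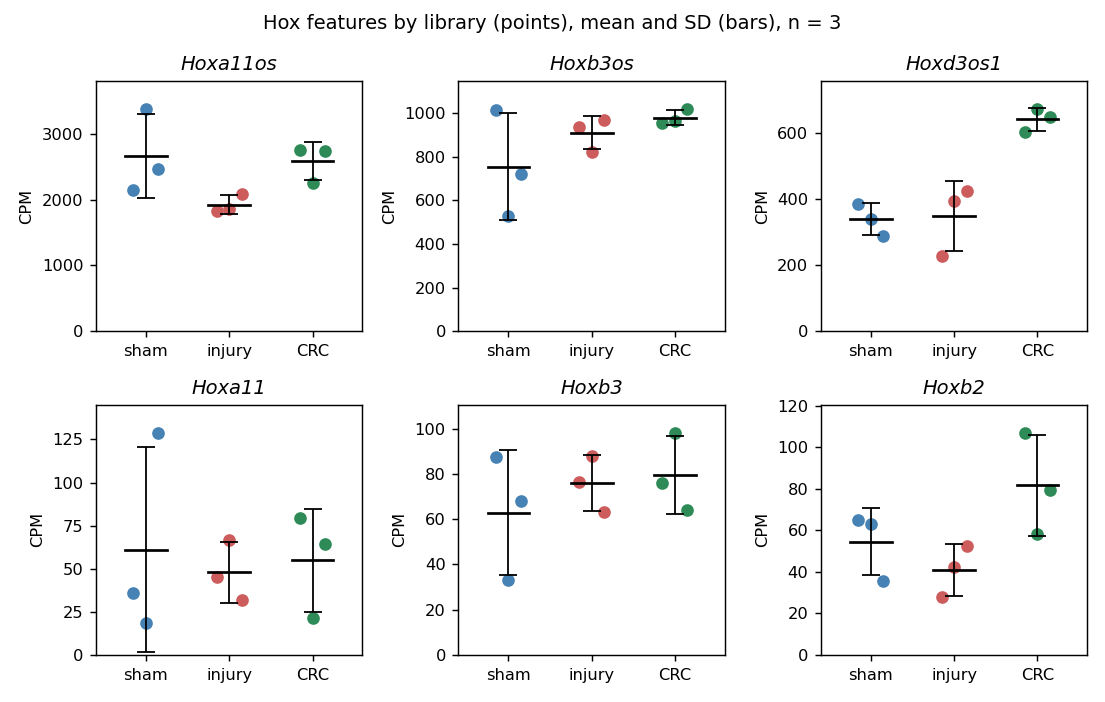
CPM of 3 antisense-named transcripts and of the genes on the opposite strand in each library (points), with the mean and SD of 3 libraries (bars). The CRC libraries of Hoxd3os1 sit between 603 and 673 CPM, above all sham and injury libraries.

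No Hox gene was called in any comparison with edgeR or DESeq2 on all 9 libraries, and 1 had an unadjusted p under 0.05, Hoxb2 in CRC against injury. Hoxb2, an anterior gene, had 20, 17 and 10 counts in the sham mice, 8, 12 and 15 after injury, and 35, 19 and 26 with CRCs. Every CRC library lay above every injury library in CPM, and sham overlapped both. Its log2 fold change was 0.99 (SE 0.43) between CRC and injury (adjusted p = 0.14), 0.57 (SE 0.41) between CRC and sham (adjusted p = 0.354) and −0.42 (SE 0.45) between injury and sham (adjusted p = 0.752). Its neighbour Hoxb3 had 27, 9 and 19 counts in the sham mice, 22, 25 and 18 after injury, and 25, 32 and 21 with CRCs, and all groups overlapped. Its log2 fold changes were 0.26 (SE 0.39, adjusted p = 0.847) for injury against sham, 0.32 (SE 0.39, adjusted p = 0.611) for CRC against sham and 0.07 (SE 0.38, adjusted p = 0.94) for CRC against injury. Without sham replicate 2, its lowest library, the values against sham were −0.05 (adjusted p = 0.989) for injury and 0 (adjusted p = 1) for CRC, in ranges of 0.516 to 0.989 and 0.258 to 1.

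Hoxb5, of the middle of the cluster, had a log2 fold change of −0.87 (SE 0.51, adjusted p = 0.517) between injury and sham, −0.02 (SE 0.47, adjusted p = 0.983) between CRC and sham and 0.85 (SE 0.50, adjusted p = 0.315) between CRC and injury. Its sign in CRC against sham turned in 8 of 16 alternatives, to 0.31 without sham replicate 1 (adjusted p = 0.731, range 0.639 to 1). Hoxb6 had 11, 11 and 9 counts in the sham mice, 10, 11 and 4 after injury, and 19, 15 and 9 with CRCs. Its log2 fold changes were −0.31 (SE 0.56, adjusted p = 0.88), 0.27 (SE 0.53, adjusted p = 0.771) and 0.58 (SE 0.54, adjusted p = 0.562) in the same order. For both genes all groups overlapped. The posterior gene Hoxd9 had 14, 1 and 12 counts in the sham mice, 6, 7 and 8 after injury, and 9, 2 and 11 with CRCs, again with overlap of all groups. Its log2 fold changes were −0.33 (SE 0.74, adjusted p = 0.907), −0.46 (SE 0.73, adjusted p = 0.711) and −0.13 (SE 0.75, adjusted p = 0.944). Without sham replicate 1 the value for injury against sham was 0.06 (adjusted p = 0.981, range 0.695 to 1).

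Hoxa11 had log2 fold changes of −0.34 (SE 0.56, adjusted p = 0.858) for injury against sham, −0.15 (SE 0.54, adjusted p = 0.889) for CRC against sham and 0.20 (SE 0.55, adjusted p = 0.868) for CRC against injury. Without sham replicate 3, its highest library, the comparisons with sham turned to 0.79 (adjusted p = 0.682) and 0.97 (adjusted p = 0.309). With all libraries, its 95% interval for CRC against sham ran from −1.21 to 0.92.

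**Figure D3:**
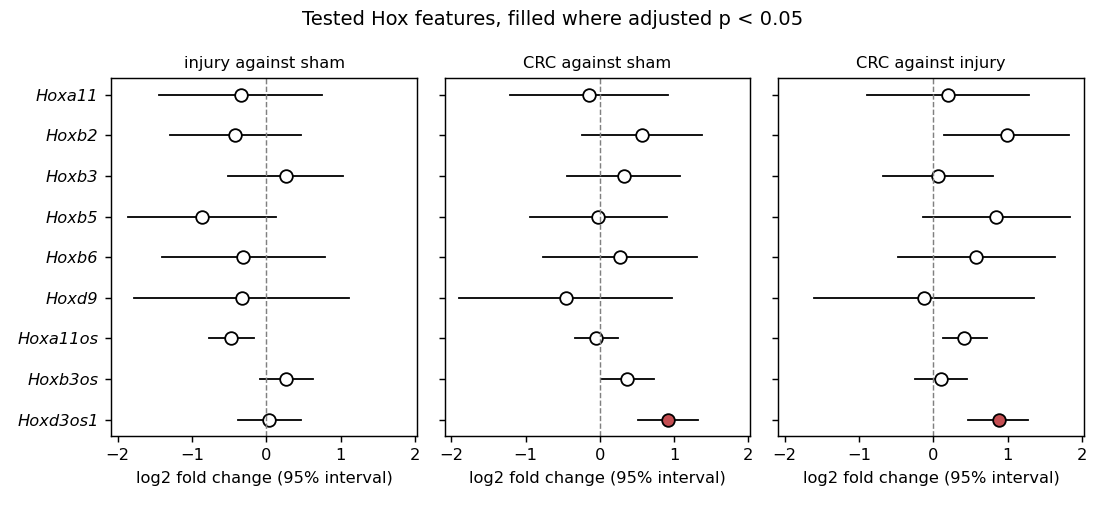
Log2 fold changes of the 9 tested Hox features in the 3 comparisons, with 95% intervals by the normal approximation from the standard error, filled where the adjusted p was under 0.05. Hoxd3os1 is the filled point, at 0.92 and 0.88 in the comparisons of CRC with sham and with injury.

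Hoxa10 had too few counts for the test, with 4, 0 and 0 in the sham mice, 5, 1 and 2 after injury, and 5, 9 and 6 with CRCs. Every CRC library lay above every sham library, and injury replicate 1 overlapped CRC. Among the genes left out of the test, the highest totals were in HoxD. Hoxd12 had 9, 4 and 7 counts in the sham mice, 0, 13 and 6 after injury, and 8, 7 and 8 with CRCs. Hoxd11 had 12, 0 and 3 in the sham mice, 2, 8 and 3 after injury, and 5, 12 and 3 with CRCs, and for both genes the groups overlapped. Hoxd10 had 12, 0 and 4 in the sham mice, 2, 6 and 10 after injury, and 3, 3 and 1 with CRCs. Hoxd8 had 0, 7 and 10 in the sham mice, 8, 3 and 6 after injury, and 9 in each CRC library. Both overlapped between groups as well. Hoxb7 had 0, 3 and 3 in the sham mice, 6, 9 and 3 after injury, and 9, 7 and 2 with CRCs, again with overlap. Hoxb8 had 0, 0 and 5 counts in the sham mice, 3, 1 and 2 after injury, and 10, 4 and 13 with CRCs. It was called against sham only in the fit without sham replicate 3 (adjusted p = 0.0468). That fit leaves sham at 0, and only CRC libraries held as many as 10 counts of Hoxb8, so nothing is concluded from this call. The remaining genes with counts held 2 to 30 over the 9 libraries.

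Other features that lie within the clusters on the strand opposite to the Hox genes, outside the name rule and chosen after their values were seen, were read next to them. Hoxaas2 (chromosome 6, plus strand, 52165674 to 52169564), which shares 503 exon bases with Hoxa3, had 30, 18 and 37 counts in the sham mice, 32, 34 and 43 after injury, and 102, 135 and 92 with CRCs. All CRC libraries lay above all others. It was called in CRC against sham (log2 fold change 1.76, SE 0.28, adjusted p = 2.32e-05) and against injury (1.40, SE 0.27, adjusted p = 0.000524), in all 17 alternatives each. The feature 5730596B20Rik, which lies opposite Hoxa3 over 292 exon bases, had 94, 55 and 78 counts in the sham mice, 51, 76 and 53 after injury, and 109, 181 and 184 with CRCs, and its CRC libraries too lay above all others. It was called against sham (0.88, SE 0.23, adjusted p = 0.00715) and against injury (1.20, SE 0.24, adjusted p = 0.000641). The call against sham was lost without CRC replicate 2 (adjusted p = 0.057) or CRC replicate 3 (adjusted p = 0.0663). Hoxa3 itself had 12 counts in all, 2, 7 and 0 of them in the sham mice, 1, 0 and 0 after injury, and 0, 1 and 1 with CRCs.

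Hoxaas3, opposite Hoxa3 and Hoxa7, had 27, 39 and 22 counts in the sham mice, 24, 20 and 23 after injury, and 37, 31 and 19 with CRCs, and was not called (log2 fold change −0.22, SE 0.35, adjusted p = 0.711 in CRC against sham, and 0.06 with adjusted p = 0.93 without sham replicate 2, range 0.525 to 0.992). Haglr, a transcript that starts beside Hoxd1, had 9, 10 and 11 counts in the sham mice, 14, 21 and 11 after injury, and 25, 26 and 23 with CRCs. Its CRC libraries lay above the sham libraries and overlapped injury, with a log2 fold change of 1.10 (SE 0.43, adjusted p = 0.0695) against sham. It was called with library sizes of all records (adjusted p = 0.0176), 1 of 16 alternatives with adjusted p-values up to 0.263. Haglr was the 1 tested transcript of a list of 19 other RNAs of the clusters, of which 15 names were found and 13 of these, Hotair, Hottip and Hotairm1 among them, had 0 counts in every library. No member of this list was called with edgeR or with DESeq2 in any comparison, and 1 had an unadjusted p under 0.05, in CRC against sham. Over all tested features edgeR called 0.430% in injury against sham, 20.0% in CRC against sham and 12.9% in CRC against injury.

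RefSeq held promoter windows for 25 of the 43 symbols, each of 300 bases on GRCm38.p6 around the annotated start. They are shown for Hoxd3os1, the called feature, and for Hoxa11os, the most abundant, to show the sequence at each start that RefSeq gives. The Hoxd3os1 window is chr2:74716081-74716380 on the minus strand, with the 50 bases of its exon in capitals. The Hoxa11os window is chr6:52244993-52245292 on the plus strand, with the 282 bases that are coding sequence of Hoxa11 on the other strand in capitals.
Hoxd3os1: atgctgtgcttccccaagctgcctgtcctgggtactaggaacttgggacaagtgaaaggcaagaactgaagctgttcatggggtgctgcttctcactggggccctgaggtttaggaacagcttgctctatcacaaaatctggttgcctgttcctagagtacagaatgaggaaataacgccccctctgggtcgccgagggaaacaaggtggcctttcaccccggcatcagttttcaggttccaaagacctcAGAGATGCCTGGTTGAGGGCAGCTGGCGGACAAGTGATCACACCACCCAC
Hoxa11os: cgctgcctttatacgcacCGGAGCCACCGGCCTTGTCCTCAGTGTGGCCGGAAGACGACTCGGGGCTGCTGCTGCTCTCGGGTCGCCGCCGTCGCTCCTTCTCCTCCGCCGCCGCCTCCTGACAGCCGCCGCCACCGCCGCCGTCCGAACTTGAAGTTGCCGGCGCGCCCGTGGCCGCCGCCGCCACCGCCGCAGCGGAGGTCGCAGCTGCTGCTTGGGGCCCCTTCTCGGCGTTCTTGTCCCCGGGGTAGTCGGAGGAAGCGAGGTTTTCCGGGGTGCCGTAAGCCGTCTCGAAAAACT
The Hoxa11os window had a GC content of 70.3% with 41 CpG, and the Hoxd3os1 window 54.0% with 5 CpG, beside medians of 52.7% and 7 over 32851 promoters. The GENCODE model of Hoxa11os begins upstream of this window, at 52244393, so all of the window is exon there. The Hoxa11os start in RefSeq lies against the coding exon of Hoxa11, whereas the Hoxd3os1 window overlaps no exon of Hoxd3 or Hoxd4. Searched on both strands, TATAAA was found once in the Hoxa11os window and not in that of Hoxd3os1 (13.6% of all promoters hold it). The match lies near the upstream end of the Hoxa11os window and reads on the minus strand, which is that of Hoxa11 and not of Hoxa11os. CCAAT (37.4%), GGGCGG (35.7%), the motif of PBX and HOX dimers TGATTNAT (3.22%), TGTTCT, the core of a progesterone response element (19.0%), CACGTG (7.15%) and the palindromic estrogen response element (0.07%) were in neither window.

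Hox proteins bind DNA with cofactors of the PBX, MEIS and PKNOX families, of which 9 were listed and 2 had enough counts for the test. Meis2, a homeodomain cofactor, had 13, 15 and 4 counts in the sham mice, 8, 9 and 11 after injury, and 34, 30 and 30 with CRCs, and all CRC libraries lay above the others. It was higher in CRC than in sham (log2 fold change 1.35, SE 0.44, adjusted p = 0.0285) and than in injury (1.54, SE 0.45, adjusted p = 0.0189). The call against sham was lost without sham replicate 3 (adjusted p = 0.159), CRC replicate 1 (0.0922), CRC replicate 2 (0.0705) or CRC replicate 3 (0.0725), and it held in 10 of 16 alternatives, with adjusted p-values from 0.00693 to 0.159. The call against injury was lost without any 1 of the injury or CRC libraries (adjusted p from 0.0508 to 0.0967) and held in 8 of 16 alternatives, from 0.0017 to 0.0967. Pknox2 had 33, 18 and 26 counts in the sham mice, 23, 23 and 12 after injury, and 21, 5 and 11 with CRCs. It was lower in CRC than in sham at the edge of the threshold (log2 fold change −1.23, SE 0.45, adjusted p = 0.0498), a call that 5 of 16 alternatives kept, from 0.0163 to 0.246. It was lost without sham replicate 1 (adjusted p = 0.109), sham replicate 3 (0.0938), injury replicate 1 (0.0593), injury replicate 2 (0.0581), CRC replicate 2 (0.246) or CRC replicate 3 (0.149). DESeq2 called neither gene. Over all tested features 20.0% were called in CRC against sham and 12.9% in CRC against injury. In injury against sham 0 of the 2 were called with edgeR and 0 with DESeq2, and 0 had an unadjusted p under 0.05, where 0.430% of all features were called.

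Of 20 uterine genes listed as acting with or below Hoxa10 and Hoxa11, 4 had enough counts, and 2 of these were higher in CRC than in sham with both tools, where 20.0% of all tested features were called and 8.03% were called higher. Lifr, the receptor of leukemia inhibitory factor, had 29, 20 and 15 counts in the sham mice, 37, 43 and 34 after injury, and 75, 57 and 73 with CRCs. The groups did not overlap, and the log2 fold change against sham was 1.49 (SE 0.30, adjusted p = 0.000483), called in 17 of 17 alternatives (8.37e-05 to 0.00682). Nr2f2, a nuclear receptor of the stroma, had 38, 42 and 40 counts in the sham mice, 39, 48 and 47 after injury, and 75, 91 and 78 with CRCs, with all CRC libraries above the others. Its log2 fold change against sham was 0.82 (SE 0.25, adjusted p = 0.0189), and 643 of its exon bases lie opposite another feature. The call was lost without sham replicate 1 (adjusted p = 0.0583), sham replicate 3 (0.0563), CRC replicate 2 (0.0939) or CRC replicate 3 (0.0529), and with no filter on low counts (0.058), and held in 12 of 17 alternatives over a range of 0.00178 to 0.0939. The progesterone receptor gene Pgr stood at 262 ± 53.7 CPM in sham, 177 ± 18.7 in injury and 248 ± 23.2 in CRC (SD, n = 3) and was not called (log2 fold change −0.56, SE 0.24, adjusted p = 0.323 in injury against sham). In injury against sham 0 of the 4 were called by edgeR or DESeq2, where edgeR called 0.430% of all features, and 2 had an unadjusted p under 0.05. In CRC against injury the same counts were 0, 0 and 2, where 12.9% of all features were called. Nr2f2 was called there in 3 of 17 alternatives (adjusted p from 0.0174 to 0.428) and Lifr in 1 of 17 (0.0404 to 0.584).

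Of 20 Polycomb and trithorax genes, which keep Hox clusters silent or active, 3 were tested. Ezh1, a histone methyltransferase of Polycomb, had 43, 33 and 35 counts in the sham mice, 19, 31 and 32 after injury, and 18, 21 and 21 with CRCs, and CRC lay below sham in every library. It was lower in CRC than in sham (log2 fold change −1.07, SE 0.33, adjusted p = 0.0201) with edgeR and not with DESeq2, 1 of 3 where 20.0% of all tested features were called. The call was lost without CRC replicate 1 (adjusted p = 0.0919), CRC replicate 2 (0.0641) or CRC replicate 3 (0.0611), with library sizes of all records (0.0839) and with no filter on low counts (0.1). It held in 11 of 17 alternatives, from 0.0161 to 0.1. In injury against sham and CRC against injury 0 of the 3 were called with either tool, where 0.430% and 12.9% of all features were called with edgeR, and 1 had an unadjusted p under 0.05 in each. Of 18 ParaHox and other homeobox genes of the tract, Emx2 alone was tested, with 19, 31 and 18 counts in the sham mice, 18, 12 and 11 after injury, and 6, 7 and 17 with CRCs. Emx2, a homeobox gene needed to form the tract, has 264 exon bases opposite Emx2os and was lower in CRC than in sham (log2 fold change −1.38, SE 0.48, adjusted p = 0.04), again beside 20.0% of all features. The call was lost without sham replicate 2 (adjusted p = 0.15), CRC replicate 1 (0.175) or CRC replicate 2 (0.157). It was also lost with library sizes of all records (0.1), no filter (0.131), only the 2 groups compared (0.0564), the replicate block (0.0602) and DESeq2 (0.13). It held in 8 of 16 alternatives, from 0.0188 to 0.175. In the other comparisons Emx2 was not called with either tool, and its unadjusted p was 0.121 for injury against sham and 0.211 for CRC against injury.

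Markers of cell types in the uterus were summed in each library beside these values, and their part in the Hox results was not tested. The 8 smooth muscle markers, with Myh11 the most abundant at 459 counts, summed to 399, 559 and 489.9 CPM in the sham mice, 291, 334 and 316 after injury, and 241, 234 and 311 with CRCs. Of the 3 tested, Myh11 was lower in CRC than in sham (log2 fold change −1.24, SE 0.30, adjusted p = 0.00299), where 20.0% of all tested features were called. Tagln (−1.13, SE 0.42, adjusted p = 0.0528) and Lmod1 (0.13, SE 0.44, adjusted p = 0.872) were not called. The 8 stromal markers, of which Hoxa11 itself was the most abundant at 147 counts, summed to 149, 218 and 325 CPM in the sham mice, 125, 162 and 129.8 after injury, and 122, 73.7 and 113 with CRCs. Of the 3 tested, Col1a1 and Col3a1 were lower in CRC than in sham (log2 fold changes −2.74 and −1.93, SE 0.66 and 0.60, adjusted p = 0.00323 and 0.0219), beside the same 20.0% of all features. DESeq2 called Col1a1 and not Col3a1 (adjusted p = 0.0638). The call of Col1a1 was lost without sham replicate 3 (adjusted p = 0.0561, range 0.000669 to 0.0561), and that of Col3a1 without sham replicate 2 (0.125), CRC replicate 2 (0.077) or CRC replicate 3 (0.0731), and with no filter on low counts (0.0898, range 0.00886 to 0.125). Both muscle and stroma sums were thus highest in sham on average, with overlap of sham replicate 1 and injury replicate 2 in stroma. Hoxa11 made up 35.7 and 66.8 CPM of these 2 sums, so the overlap rests on Hoxa11. As a Hox member is in it, the stroma sum is not separate from the Hox values.

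Of 7 leukocyte markers, 5 had 0 counts in every library (Ptprc, Adgre1, Cd3e, Ly6g and Lyz2), and Csf1r held 496 of the 498 counts of the list. Its level made up sums of 214, 233 and 282 CPM in the sham mice, 219, 172 and 218 after injury, and 137, 111 and 107 with CRCs. Csf1r was lower in CRC than in sham (log2 fold change −1.04, SE 0.26, adjusted p = 0.00431). Of its exon bases 873 lie opposite Hmgxb3, so without the strand its counts cannot be told apart from those of that gene there. The 10 epithelial markers were near the floor and none was tested, with Cdh1, Foxa2 and Wfdc2 at 0 in every library and Muc1 the most abundant at 27 counts. They summed to 48.7, 37.0 and 28.6 CPM in the sham mice, 10.4, 21.1 and 14.0 after injury, and 21.3, 24.6 and 12.2 with CRCs, so few or no reads were put under the defining markers of epithelium. The 5 endothelial markers, with Pecam1 at 26 counts, summed to 55.1, 0 and 25 CPM in the sham mice, 13.9, 24.6 and 17.5 after injury, and 6.09, 18.4 and 3.05 with CRCs. No marker was called in injury against sham or in CRC against injury with edgeR or DESeq2, where edgeR called 0.430% and 12.9% of all features. Unadjusted p-values under 0.05 were those of Myh11 (0.00481) and Col1a1 (0.036) in the former and of Csf1r (0.00687) in the latter. Without sham replicate 1, Myh11 was called in the former (adjusted p = 0.0486, range 0.0486 to 0.485). Csf1r was called in the latter without sham replicate 1 (adjusted p = 0.031), sham replicate 2 (0.0261) or injury replicate 2 (0.0425), over a range of 0.0234 to 0.176. All 4 erythroid markers had 0 counts in every library. Of 3 fibroblast markers for the feeder layer, S100a4 and Fap had 0 counts, and Thy1 had 0 in each sham library, 1, 0 and 0 counts after injury, and 3, 2 and 2 with CRCs.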

How the data were processed

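Whole-uterus RNA of 9 mice, 3 per group, was used. The deposited values are raw counts per named feature, which the authors made from reads aligned with HISAT2 2.1.0 (StringTie 2.1.1 is also named). The 5 rows of uncounted records, which bear the names HTSeq gives them, were left out. Which strand, if any, the counting used is not stated in the sources used here. Features held 0.776% to 0.898% of the records of a library, and 3 counts correspond to 9.14 to 11.1 CPM.

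Hox rows were taken by name in R 4.3.3. One edgeR 4.0.16 fit (limma 3.58.1) over all 9 libraries used filterByExpr, TMM and the robust quasi-likelihood F-test, with 3 contrasts that share groups and Benjamini-Hochberg adjustment over 3722 features. Calls needed an adjusted p under 0.05. Alternatives were DESeq2 1.42.0, other scalings and filters, fewer samples, a replicate block and a stricter threshold. Those for the other cluster transcripts and for called list members were chosen after seeing the data. Named in full were all tested Hox features, Hoxa10, Hoxa11, features with an antisense-named partner and the 5 untested ones with most counts. Members and lists were chosen with earlier results of these data known. Positions are from GENCODE M21 (GRCm38), matched by symbol and not necessarily the version used in counting, and promoters from RefSeq. Tables and plots used Python 3.11.15, numpy 2.4.6, pandas 2.3.3, scipy 1.17.1 and matplotlib 3.10.9.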

Additional observations from a re-analysis of the deposited data

How the results depend on the processing

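Few counts per Hox gene limit most results, and the strand of counting is not known. No direction of a called result turned under any alternative run. In injury against sham, the number of Hox features called was 0, and 0 to 1 with 1 library left out, 1 without sham replicate 1. Over all features it was 16, and 6 with only the 2 groups compared, 5 with the replicate block, 5 at an adjusted p under 0.01, and 3 to 154 with 1 library left out. It was 154 without sham replicate 1, 3 without sham replicate 3 or injury replicate 2, 4 without injury replicate 3, 8 without injury replicate 1 and 10 without CRC replicate 3.

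In CRC against sham, 1 Hox feature was called, 2 with library sizes of all records, and 1 to 2 with 1 library left out (2 without sham replicate 1 or sham replicate 3). Without sham replicate 3 one of the 2 was Hoxb8, with sham left at 0, from which nothing is concluded. Over all features 746 were called, 437 at an adjusted p under 0.01, and 505 to 894 with 1 library left out. In CRC against injury, 1 Hox feature was called, and 2 with library sizes of all records, with at least 10 counts in every library or with only the 2 groups compared. With 1 library left out it was 0 to 2, with 0 without injury replicate 1 and 2 without sham replicate 1 or sham replicate 2. Over all features 481 were called, 289 at an adjusted p under 0.01, and 330 to 660 with 1 library left out. Except where fewer samples or a stricter threshold made the change, the cause was not tested.

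With library sizes of all records, the ratio of summed CPM in CRC over sham moved from 1.12 to 1.37 for antisense-named transcripts and from 1.18 to 1.45 for Hox genes. In CRC over injury it moved from 1.32 to 1.51 and from 1.4 to 1.61. The replicate block called 0, 1 and 1 Hox features in the 3 comparisons. With it Emx2 was not called in CRC against sham (adjusted p = 0.0602, range 0.0188 to 0.175). Replicate numbers do not pair samples: correlations of their deviations from the group means ran from −0.0964 to 0.0801.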

Other observations

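Some Hox genes with few counts were chosen here after their values were seen. Hoxc4 and Hoxb9 had most of theirs in the CRC libraries. Hoxc4 had 1, 0 and 0 counts in the sham mice, 0 in each injury library, and 5, 4 and 2 with CRCs. Hoxb9 had 2, 0 and 1 counts in CRC and 0 in each sham and injury library, no more than a count of 0 allows. Hoxa9 had 3, 2 and 1 counts in the sham mice, 0, 6 and 2 after injury, and 3, 4 and 9 with CRCs, with overlap of all groups. By contrast Hoxa2, an anterior gene, had most of its counts in sham, with 5, 0 and 3 counts in the sham mice, 1, 0 and 0 after injury, and 1, 0 and 2 with CRCs. None of these had enough counts for the test.

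The posterior HoxD genes of groups 9 to 13 summed to 48, 5 and 26 counts in the sham mice, 10, 34 and 27 after injury, and 26, 24 and 23 with CRCs. The spread in sham and injury was wide, and the CRC libraries lay within it.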
